A study of Mus musculus with 8 samples.

Results

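Small nucleolar and small Cajal body RNAs were described across 8 libraries of immortalised mouse skin fibroblasts. All features whose names begin with Snord, Snora or Scarna were taken where 2 or more of the 8 libraries reached a value of 10. This kept 107 of 109 such features, among 12107 features that passed the same limit and 17091 in the table. The 107 were 64 C/D RNAs (Snord), 34 H/ACA RNAs (Snora) and 9 Scarna RNAs. Both RNAs left out, Snord1c and Snora35, stood at 1, the table's lowest entry, in each of the 8 libraries. The cells were KO or WT and had been kept in hypoxia (1% oxygen) or normoxia (21% oxygen) for 24 hours, with 2 libraries in each of 4 groups, KO hypoxia, KO normoxia, WT hypoxia and WT normoxia. KO cells came from mice with both copies of mir210 flanked by lox sites on C57BL/6, and WT cells from C57BL/6 mice. The labels name no Cre recombinase, and KO is therefore only the name that the labels give. All 4 groups share immortalisation and the skin origin.

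Box C/D RNAs carry a C box near the 5′ end and a D box near the 3′ end, and with fibrillarin they guide methylation of the ribose in ribosomal RNA. Box H/ACA RNAs fold into hairpins that end in an ACA box, and with dyskerin they guide the conversion of uridine to pseudouridine. A few of both classes act in cutting the ribosomal RNA precursor instead, and Scarna RNAs stay in Cajal bodies and guide the same changes in spliceosomal RNAs. In mammals most of them lie in introns of host genes, often genes for ribosomal proteins, and are released when the spliced intron is trimmed.

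The sequences below belong to 3 RNAs of each class with high values per length, the highest of the C/D class and, after Snora74a, which is named without sequence, the highest of the H/ACA class, from transcripts of GENCODE release M21 on GRCm38, read 5′ to 3′ as DNA letters. Capitals mark TGATGA, the core of the C box, and CTGA, the D box, in C/D RNAs, and the ACA box in H/ACA RNAs. Snord22 lies at chr19:8725866-8725991 on the + strand in Snhg1, in what is an exon of some transcript. Snord82 lies at chr1:86356261-86356330 on the - strand in an intron of Ncl, and Snord100 at chr10:23785750-23785823 on the - strand in Rps12. Snora7a lies at chr6:115807975-115808114 on the - strand in Rpl32, Snora52 at chr7:141448803-141448939 on the + strand in Rplp2, and Snora24 at chr3:123507937-123508066 on the - strand in Snhg8. Apart from Snord82, these overlap an exon of some annotated transcript of the host.
Snord22: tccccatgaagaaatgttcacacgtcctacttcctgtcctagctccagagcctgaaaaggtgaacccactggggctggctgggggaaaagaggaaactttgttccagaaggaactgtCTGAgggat
Snord82: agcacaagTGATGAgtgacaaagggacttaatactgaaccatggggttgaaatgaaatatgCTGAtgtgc
Snord100: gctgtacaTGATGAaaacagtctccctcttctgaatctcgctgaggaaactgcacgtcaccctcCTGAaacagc
Snora7a: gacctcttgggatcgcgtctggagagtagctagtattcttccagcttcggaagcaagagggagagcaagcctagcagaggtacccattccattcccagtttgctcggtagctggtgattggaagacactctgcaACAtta
Snora52: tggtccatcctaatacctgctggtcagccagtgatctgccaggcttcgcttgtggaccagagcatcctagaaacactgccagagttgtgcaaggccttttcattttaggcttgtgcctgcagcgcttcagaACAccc
Snora24: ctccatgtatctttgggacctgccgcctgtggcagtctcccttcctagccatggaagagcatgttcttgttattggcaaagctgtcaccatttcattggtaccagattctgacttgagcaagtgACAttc
In the first 20 bases of the 64 C/D RNAs, TGATGA stood in 40 (62.5%), and CTGA stood in the last 20 bases of 62 (96.9%). Over 58791 protein-coding transcripts the same windows held these motifs in 0.361% and 9.07%. ACA stood in the last 10 bases of 32 of 34 H/ACA RNAs (94.1%), against 14.6% of protein-coding transcripts, and TGATGA stood in the first 20 bases of 0 of them. Only the RNA's own strand was searched. Both C/D motifs stood together in 38 of the 64 (59.4%). In the windows given, 7 C/D RNAs (10.9%) held ACA and 4 H/ACA RNAs (11.8%) held CTGA.

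The second set holds the C/D RNAs that the comparisons turn on, Snord2 and Snord87, which had the smallest p-values for hypoxia, and Snord72, which departed farthest from the other RNAs. Snord2 lies at chr16:23108953-23109021 on the + strand in Eif4a2, Snord87 at chr1:9942463-9942549 on the - strand in an intron of Snhg6, and Snord72 at chr15:5118404-5118484 on the + strand in an intron of Rpl37.
Snord2: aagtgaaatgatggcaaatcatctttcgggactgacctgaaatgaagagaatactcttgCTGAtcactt
Snord87: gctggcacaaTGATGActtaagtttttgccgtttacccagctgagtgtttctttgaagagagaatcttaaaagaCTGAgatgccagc
Snord72: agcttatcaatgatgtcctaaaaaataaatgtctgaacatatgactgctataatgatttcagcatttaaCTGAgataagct
Snord2 and Snord72 hold the D box in capitals but not TGATGA in the window searched.

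The deposited values are normalised read counts, one whole number per feature and library, with totals of 7.93 to 8.68 M. Normalised totals do not show depth, but the low values fall on multiples of what 1 read is worth, and from these the libraries held an estimated 6.27 to 11.8 M assigned reads. At that depth 91 of the 107 RNAs had a mean of at least 100 estimated reads, and 3 had under 20. The hypoxia response was present in the libraries: Car9, a carbonic anhydrase induced by low oxygen, had 260 and 265 in KO hypoxia, 12 and 15 in KO normoxia, 250 and 538 in WT hypoxia and 29 and 19 in WT normoxia. All 10 fibroblast markers looked at passed the value limit, with Vim between 22681 and 35333, though Fap was low at 4 to 40 and Dcn at 12 to 93. The keratinocyte gene Krt5 stood at 1 and the endothelial gene Pecam1 at 1 or 2 in all 8 libraries. Ptprc, Csf1r, Cdh5, Krt14 and Epcam did not pass the limit either. Other markers of epithelium (Cdh1, 8 to 38), endothelium (Kdr, 6 to 25, and Tek, 3 to 27), leukocytes (Cd68, 6 to 18) and melanocytes (Mitf, 29 to 57, and Pmel, 11 to 23) passed at low values. Mir210 stood at 1 in all 8 libraries and so checks no genotype.

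The levels of these small RNAs varied together from library to library, and in KO cells the replicates differed by more than the oxygen levels did. The log2 of each RNA's value plus 1, less that RNA's own mean over the 8 libraries, had a median of 1.47 in KO hypoxia replicate 1 and -0.62 in KO hypoxia replicate 2. The median was 0.35 in KO normoxia replicate 1 and -1.01 in KO normoxia replicate 2. In WT hypoxia it was 0.83 in replicate 1 and 0.29 in replicate 2, and in WT normoxia -0.58 and -0.68. Thus the WT replicates lay near each other, while the KO replicates of 1 oxygen level lay farther apart than the group means did. In all 4 groups the median was higher in replicate 1 than in replicate 2, though by little in WT normoxia. All 107 RNAs were above their own mean in KO hypoxia replicate 1, and 99 had their highest value there. In KO normoxia replicate 2, 1 of 107 was above its mean and 63 had their lowest value. The RNAs together took 4.33% and 1.29% of the library total in KO hypoxia, 2.18% and 0.93% in KO normoxia, 2.77% and 2.20% in WT hypoxia, and 1.22% and 0.96% in WT normoxia. Over all tested features the median deviation stayed within 0.01 of 0 in each library.

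**Figure D1:**
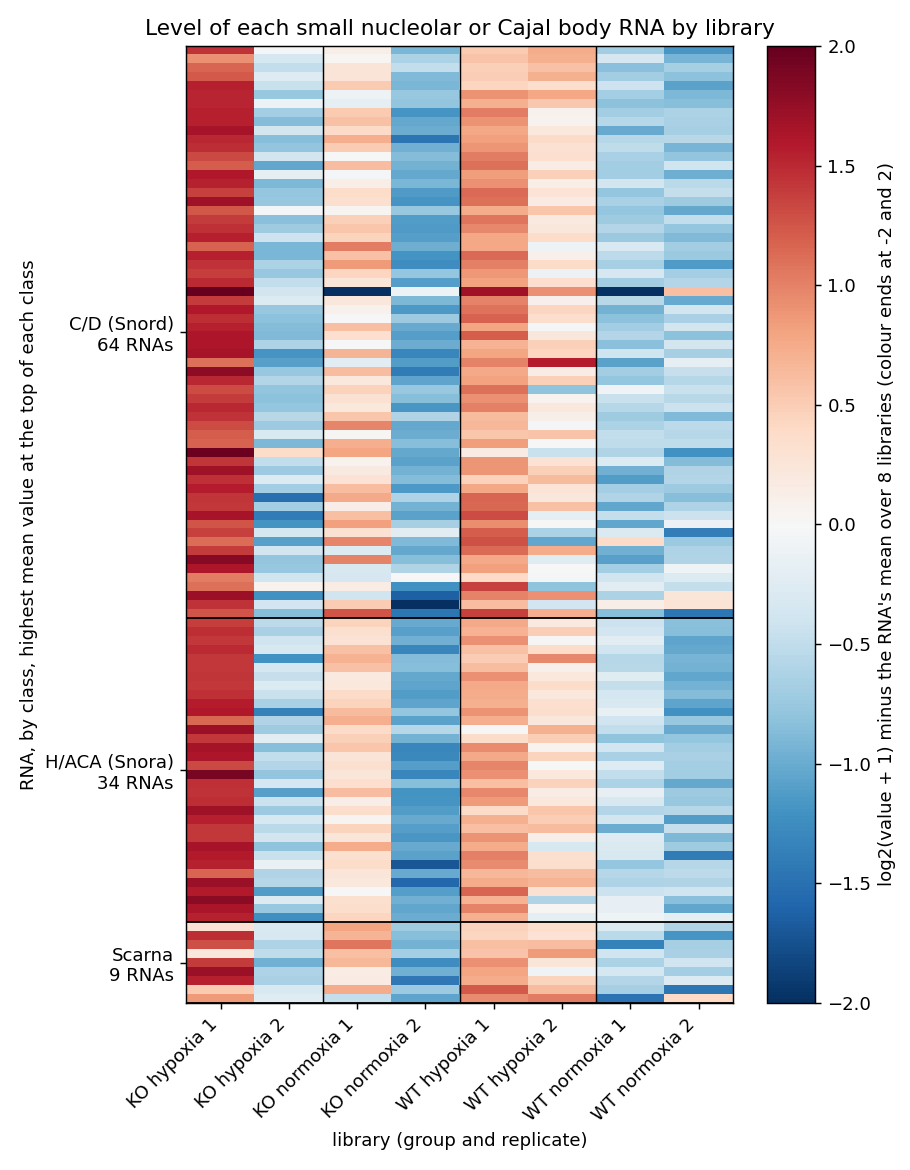
Each row is 1 of 107 RNAs, sorted by mean value within its class, each column 1 library, and colour gives log2(value + 1) minus the RNA's mean over 8 libraries. KO hypoxia replicate 1 is the highest column in 99 rows (median 1.47), and KO normoxia replicate 2 is the lowest in 63 (median -1.01).

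Other measures moved with these levels, and their part in the results was not tested. The estimated depth was 6.27 and 10.7 M reads in KO hypoxia, 6.35 and 11.8 M in KO normoxia, 7.73 and 8.22 M in WT hypoxia, and 10.2 and 6.83 M in WT normoxia. The 3 libraries with the most estimated reads all had medians below 0, and of the 4 with the fewest, WT normoxia replicate 2 alone did. Small RNAs under other names, such as the RNAs of RNase P and RNase MRP, took 7.07% and 2.23% of the total in KO hypoxia, 5.09% and 1.82% in KO normoxia, 3.76% and 3.96% in WT hypoxia, and 2.42% and 1.68% in WT normoxia. They were thus high in the same libraries as the small nucleolar RNAs. Transcripts under 1000 bases had median deviations of 0 and -0.26 in KO hypoxia, 0.36 and -0.30 in KO normoxia, 0.14 and 0.48 in WT hypoxia, and -0.16 and -0.22 in WT normoxia, so the library with the most small nucleolar RNA did not have the highest level of short transcripts. The ribosomal RNA precursor Rn45s had 171585 and 131452 in KO hypoxia, 354976 and 125493 in KO normoxia, 208991 and 144062 in WT hypoxia, and 165063 and 112926 in WT normoxia. Bulk libraries cannot tell fewer cells of a type and less RNA per cell apart.

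Once the library's median was taken out, little difference was left among the RNAs. The SD of an RNA over the 8 libraries had a median of 0.92 on the log2 scale before and 0.25 after this step, and 97 of 107 RNAs then stayed within 1 log2 unit in each library, 67 of them within 0.5. The C/D RNAs had a median SD of 0.93 before and 0.26 after, and the H/ACA RNAs 0.90 and 0.23. The Scarna RNAs kept more of their own spread, with 0.92 and 0.43.

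In WT cells hypoxia came with higher values of nearly the whole family, but none passed the test across all features. The median change of the 107 RNAs was 1.20 on the log2 scale, a 2.29-fold higher level, against -0.02 over all 12107 tested features, and 106 of 107 changes were above 0, where 47.8% of all features were. In 99 of 107 both WT hypoxia libraries lay above both WT normoxia libraries, and in 0 of 107 below them, against 18.9% and 19.9% of all features. By limma with Benjamini-Hochberg adjustment over all features, 0 of 107 passed an adjusted p of 0.05, as did 0.107% of all features as higher and 0% as lower. At an unadjusted p under 0.05 there were 31 (29%), all higher, against 4.37% of all features as higher and 6.33% in either direction, and the smallest adjusted p was 0.484. The standard error of the change had a median of 0.65 log2 units for these RNAs and 0.29 for all features, with the spread estimated over all 4 groups, KO included. Whether the 2 libraries of each group were grown as separate cultures is not in the labels. The p-values therefore rest on a spread between libraries that may be technical, and for a single RNA an exact permutation test of 2 against 2 can reach no p below 0.333.

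Snord22, the most abundant of them, is counterpart to an RNA that acts in maturation of the small subunit RNA in Xenopus oocytes. It had 20185 and 23306 in WT hypoxia and 8639 and 6215 in WT normoxia, a log2 difference of 1.57 ± 0.48 (SE, limma adjusted p = 0.767). Snord82, whose human counterpart guides methylation of 18S ribosomal RNA, had 9693 and 10727 in WT hypoxia and 5172 and 3433 in WT normoxia. In both RNAs the WT groups stood clear of each other. Snord2, which guides methylation of 28S ribosomal RNA in human cells, had 1319 and 1158 in WT hypoxia and 462 and 389 in WT normoxia, a log2 difference of 1.54 ± 0.39 (SE, limma adjusted p = 0.484). Snord87, another guide to 28S ribosomal RNA in human cells, had 6122 and 5394 in WT hypoxia and 2113 and 2064 in WT normoxia (log2 difference 1.46 ± 0.44 SE, limma adjusted p = 0.751). These 2 had among the smallest p-values of the family, with replicates close to each other in both groups. Among H/ACA RNAs, Snora7a, a guide to 28S ribosomal RNA in human cells, had 8570 and 7441 in WT hypoxia and 4073 and 2936 in WT normoxia. Snora74a, known in human cells as U19, had 18883 and 12771 in WT hypoxia and 8241 and 6266 in WT normoxia. Their hypoxia libraries were again above both normoxia libraries. So were those of Snord15a, Snord15b, Snord17, Snord100, Snora23, Snora52, Snora16a and Snora24, the others of highest level in their class or per length, with changes from 1.11 for Snora24 to 1.62 for Snord100.

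The 8 RNAs whose WT groups overlapped had WT hypoxia means from 9.5 to 418. They were Snora43, Snord53, Snora5c, Snord93, Snord19, Snora61, Snord88c and Snord88a. Snord19 had 132 and 26 in WT hypoxia and 71 and 32 in WT normoxia, so its hypoxia libraries lay on both sides of the normoxia ones. Snord88a was the 1 RNA with a change below 0, at -0.08 ± 0.92 (SE), with 13 and 6 in WT hypoxia and 9 and 10 in WT normoxia.

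In KO cells the family was also higher on average in hypoxia, but the average depended on which KO hypoxia library was kept. The median change was 0.77 on the log2 scale (1.71-fold), against 0.01 over all features, and 102 of 107 changes were above 0, against 51.1% of all features. Both KO hypoxia libraries were above both KO normoxia libraries in 2 of 107 RNAs, Snord87 and Scarna9, and below them in 0, against 15.9% and 16.3% of all features. By limma 0 of 107 passed, with 0.0578% of all features higher and 0% lower, the smallest adjusted p was 0.916, and 4 (3.74%) were higher at an unadjusted p under 0.05, against 2.28% of all features as higher and 3.2% in either direction. Without KO hypoxia replicate 1 the median change was -0.30, and without KO hypoxia replicate 2 it was 1.80. Between libraries of the same number, which the labels do not say belong together, the median deviation given above was higher in hypoxia in both KO pairs and both WT pairs.

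Snord22 had 38069 and 13640 in KO hypoxia and 15221 and 7407 in KO normoxia, so the second hypoxia library lay below the first normoxia library. Snord82 had 12321 and 5120 in KO hypoxia and 6688 and 4229 in KO normoxia. Snora7a had 14821 and 3386 in KO hypoxia and 6641 and 2518 in KO normoxia. Among the other abundant RNAs named for WT cells, changes in KO cells ran from 0.19 for Snora16a to 0.94 for Snora52. The KO hypoxia and KO normoxia libraries overlapped in 105 of the 107 RNAs, against 8211 of all 12107 tested features. Snord87 had 10758 and 3452 in KO hypoxia and 3244 and 2154 in KO normoxia (log2 difference 1.21 ± 0.44 SE, limma adjusted p = 0.916), and its groups just cleared each other. Snord2 had 1869 and 776 in KO hypoxia and 819 and 468 in KO normoxia, a log2 difference of 0.96 ± 0.39 (SE, limma adjusted p = 0.916).

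**Figure D2:**
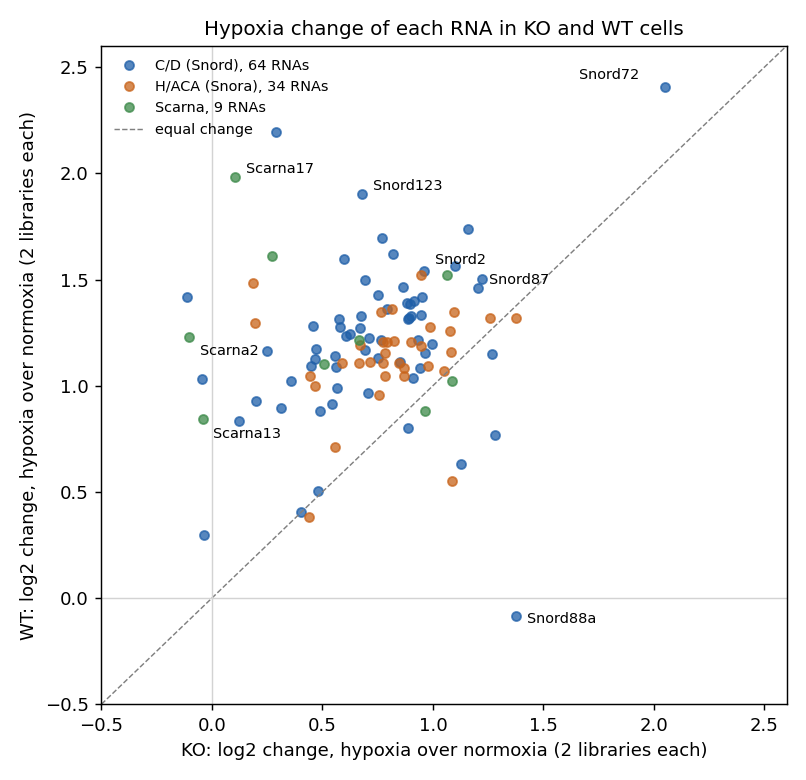
Each point is 1 RNA, with the log2 change of hypoxia over normoxia in KO cells across and in WT cells up, 2 libraries in each group. Most points lie above the dashed line of equal change, with medians of 0.77 in KO and 1.20 in WT cells, and Snord88a lies far below it.

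Over both genotypes, which uses the same 8 libraries again, all 107 changes were above 0, against 50.4% of all features, with a median of 0.97 (1.96-fold) against 0 for all other features. An unadjusted p under 0.05 was found for 48 of 107 (44.9%), 27 C/D, 17 H/ACA and 4 Scarna RNAs, all higher, against 3.71% of all features as higher and 5.29% in either direction. Yet 0 of 107 passed the adjusted limit of limma, which 0.363% of all features passed as higher and 0% as lower. The smallest adjusted p was that of Snord2 (1.25 ± 0.28 SE, limma adjusted p = 0.191), followed by Snord87 (1.33 ± 0.31 SE, limma adjusted p = 0.244) and Snord22 (1.33 ± 0.34 SE, limma adjusted p = 0.354). Snord87 was the 1 RNA with all 4 hypoxia libraries above all 4 normoxia libraries, and 0 had all 4 below, against 2.06% and 1.65% of all features. Without KO hypoxia replicate 2, limma called 6 of the C/D RNAs higher, namely Snord100, Snord87, Snord55, Snord2, Snord45c and Snord85, with adjusted p from 0.0154 to 0.0433, which is 5.61% of the family against 0.19% of all features in that fit. Without KO hypoxia replicate 1 the median change was 0.46 and limma called none.

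KO and WT cells differed little on average, with replicates on both sides. In normoxia the median difference of KO over WT was 0.32 against -0.02 for all features, with 96 of 107 above 0 against 47.7% of all features. By limma 0 of 107 passed, as did 0% of all features, and 0 had an unadjusted p under 0.05 against 3% of all features. Both KO normoxia libraries were above both WT normoxia libraries in 5 of 107 and below them in 0, against 10% and 11% of all features. The 5 were the C/D RNAs Snord87, Snord15a, Snord2, Snord7 and Snord93. Leaving out KO normoxia replicate 1 gave a median of -0.39, and leaving out KO normoxia replicate 2 gave 1.02. In hypoxia the median difference was -0.12 against -0.01 for all features, and 34 of 107 were above 0 against 49% of all features. By limma 0 of 107 passed, as did 0% of all features, the smallest adjusted p was 0.642, and 0 had an unadjusted p under 0.05 against 7.52% of all features. The median was -1.21 without KO hypoxia replicate 1 and 0.91 without KO hypoxia replicate 2. Over both oxygen levels the median was 0.08 against -0.01, and by limma 0 of 107 passed, against 0.0165% of all features higher and 0.00826% lower. All 4 KO libraries were above or below all 4 WT libraries in 0 of 107, against 1.95% and 1.7% of all features. There 1 of 107 had an unadjusted p under 0.05, against 6.07% of all features.

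The RNA with that p was Snord1b, which had 424 and 140 in KO hypoxia, 187 and 53 in KO normoxia, 122 and 79 in WT hypoxia and 71 and 46 in WT normoxia. Both KO libraries were above both WT libraries in hypoxia, but in normoxia the groups overlapped. The log2 difference over both oxygen levels was 1.05 ± 0.43 (SE, limma adjusted p = 0.78). Its neighbour in the same host, Snord1a, has 63.6% identical positions. In hypoxia Snord1b was the 1 RNA higher in both KO libraries, against 26.2% of all features, and 4 were lower in both, Scarna2, Scarna9, Scarna13 and Scarna17, against 24.5% of all features.

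The difference between the KO and WT hypoxia responses had a median of -0.45, against 0.01 for all features, and 97 of 107 were below 0, where 48.9% of all features were. By limma 0 of 107 passed and 0% of all features did, with 2 at an unadjusted p under 0.05 (3.14% of all features), both Scarna RNAs described below. The median was -1.47 without KO hypoxia replicate 1 and 0.62 without KO hypoxia replicate 2, so the sign of the difference came with which of those libraries was kept.

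The C/D and H/ACA classes moved alike. In WT cells the median change with hypoxia was 1.22 for C/D RNAs and 1.16 for H/ACA RNAs, and in KO cells 0.73 and 0.80. Both WT hypoxia libraries were above both WT normoxia libraries in 59 of 64 C/D and 31 of 34 H/ACA RNAs. The share over all features was 18.9%. The median deviation of the C/D class minus that of the H/ACA class was -0.02 and -0.17 in KO hypoxia, -0.02 and 0.07 in KO normoxia, 0.15 and -0.07 in WT hypoxia, and -0.28 and 0.20 in WT normoxia, so in each group but KO hypoxia the sign differed between the replicates. The summed C/D value over the summed H/ACA value was 1.16 and 1.33 in KO hypoxia, 1.09 and 1.35 in KO normoxia, 1.20 and 1.37 in WT hypoxia, and 1.03 and 1.27 in WT normoxia. In each group replicate 2 had the higher ratio, and the 4 libraries numbered 2 were above the 4 numbered 1 throughout. Whether the numbers mark batches is not given in the labels. Within replicate 1 the ratio was higher in hypoxia than in normoxia in both genotypes, and within replicate 2 it was lower in KO hypoxia and higher in WT hypoxia.

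**Figure D3:**
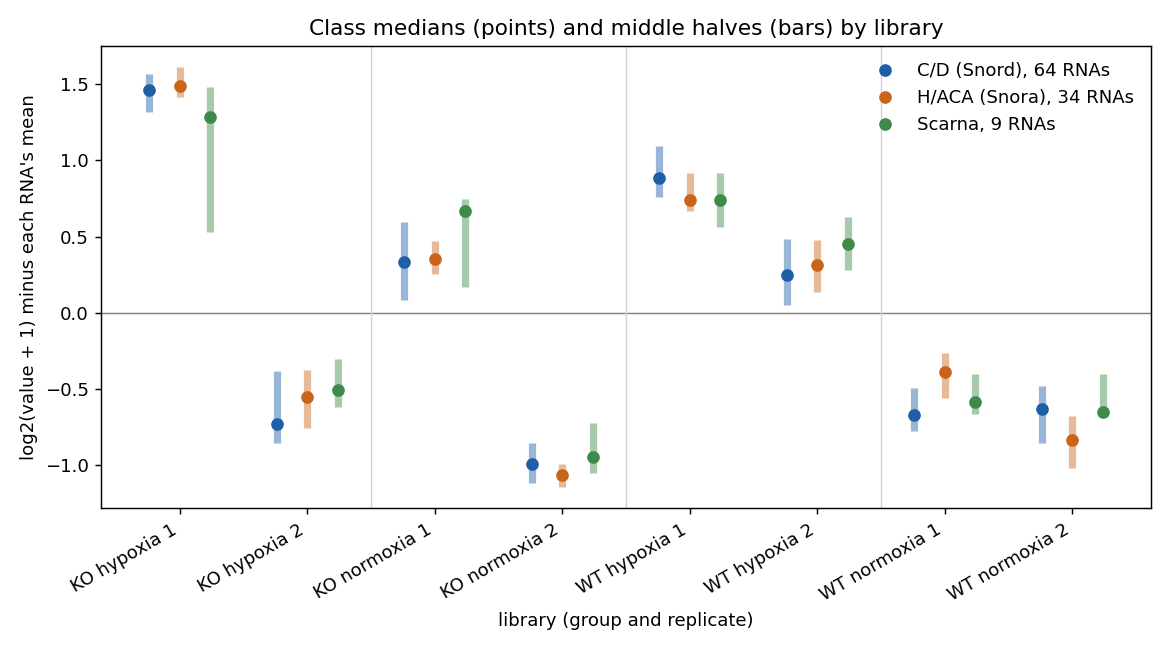
Points give the median and bars the interquartile range over the RNAs of a class of log2(value + 1) minus each RNA's mean, by library. The C/D and H/ACA medians lie within 0.28 of each other in each library, while the medians differ between libraries by over 2 log2 units.

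The size of the hypoxia difference had little to do with length or level within the family. Over the 107 RNAs, which share libraries and so are not independent, Spearman's rho of the change with length was 0.07 in KO and -0.11 in WT cells, and with mean level 0.01 and 0.19. RNAs in introns had a median change of 0.77 in KO and 1.21 in WT cells, and RNAs overlapping an exon of some transcript of the host 0.79 and 1.17. The 56 RNAs under 100 bases had medians of 0.69 in KO and 1.24 in WT cells. The 5 RNAs over 200 bases, Scarna2, Scarna6, Scarna10, Scarna13 and Snord17, had 0.27 and 1.21.

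A few RNAs did not follow the rest. Snord72, a guide to 28S ribosomal RNA in human cells, had 1126 and 186 in KO hypoxia, 53 and 226 in KO normoxia, 785 and 458 in WT hypoxia and 34 and 365 in WT normoxia. It was low in both normoxia libraries numbered 1, by 2.52 log2 units below the family's median deviation in KO and 2.21 below it in WT, and in the other libraries it lay 0.25 to 1.27 above. Its change with hypoxia was 2.05 ± 1.08 in KO and 2.41 ± 1.08 in WT cells (SE, limma adjusted p = 0.916 and 0.784), the largest of the family in both, and the replicates of its normoxia groups differed by several fold. Its host Rpl37, a ribosomal protein gene, had changes of -0.07 in KO and 0.61 in WT cells. Snord123 had 354 and 77 in KO hypoxia, 141 and 75 in KO normoxia, 327 and 492 in WT hypoxia, and 78 and 145 in WT normoxia, and it lay 1.28 above the family's median in WT hypoxia replicate 2. Snord19 lay 1.32 below it in that library. The other RNAs that left the band of 1 log2 unit were Snord53, Snord88a, Snord88c, Snord1a, Scarna2, Scarna9 and Scarna13.

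**Figure D4:**
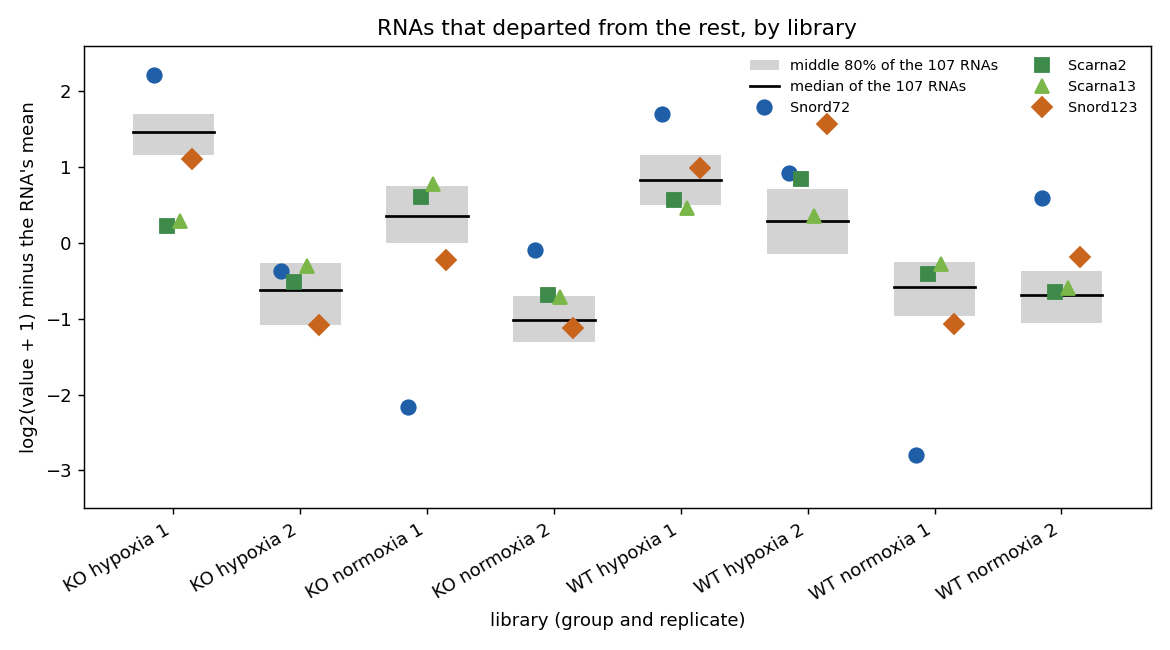
For each library the grey band spans the middle 80% of the 107 RNAs and the line their median, on the scale of log2(value + 1) minus each RNA's mean, and symbols give 4 RNAs that left the band. Snord72 falls 2.52 and 2.21 log2 units under the family's median in normoxia replicate 1 of KO and WT, and Scarna2 and Scarna13 fall under the band in KO hypoxia replicate 1.

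The Scarna RNAs were the class with the most spread of its own, and 3 of the 9 lay well below the family's median in KO hypoxia replicate 1, though above their own means. Scarna2, a guide to the spliceosomal U2 RNA in human cells, had 667 and 399 in KO hypoxia, 866 and 354 in KO normoxia, 840 and 1022 in WT hypoxia, and 429 and 362 in WT normoxia. Scarna13, also called U93, had 3672 and 2428 in KO hypoxia, 5159 and 1832 in KO normoxia, 4126 and 3831 in WT hypoxia, and 2485 and 1982 in WT normoxia. Scarna17 had 54 and 30 in KO hypoxia, 63 and 22 in KO normoxia, 88 and 58 in WT hypoxia, and 23 and 13 in WT normoxia. All 3 were clear of normoxia in WT hypoxia and mixed with it in KO hypoxia, and in KO hypoxia replicate 1 they lay 1.24, 1.17 and 0.94 log2 units below the family's median. The KO minus WT difference of the hypoxia responses was -1.33 ± 0.56 for Scarna2, -1.88 ± 0.75 for Scarna17 and -0.88 ± 0.59 for Scarna13 (SE, limma adjusted p = 0.857 or more). None passed. Leaving out KO normoxia replicate 1 brought them to -0.69, -1.14 and -0.14, and leaving out KO normoxia replicate 2 to -1.98, -2.615 and -1.63. Scarna2 and Scarna17 are also the 2 Scarna RNAs with no host gene on their strand in the annotation, but Scarna13 lies in Snhg10.

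Of the other Scarna RNAs, 5 stayed within 1 log2 unit of the family's median in each library, and Scarna9 did not. Scarna6, a guide to the spliceosomal U5 RNA in human cells, had 6747 and 1934 in KO hypoxia, 3881 and 1334 in KO normoxia, 3255 and 2934 in WT hypoxia, and 1661 and 1068 in WT normoxia. Scarna10, another such guide in human cells, had 1753 and 466 in KO hypoxia, 1513 and 371 in KO normoxia, 1092 and 1101 in WT hypoxia, and 282 and 454 in WT normoxia. Both were thus high in the libraries numbered 1 of KO. Scarna3a, Scarna3b and Scarna8 stayed within 0.41 of the family's median in each library, with highest values of 536, 339 and 433, all in KO hypoxia replicate 1. Scarna3a and Scarna3b have 85.7% identical positions, so reads could be shared between them. Scarna9, at 2 to 16 in all libraries, lay just inside the limit of values, as did Snord88a at 1 to 24 and Snord58b at 1 to 13. At such levels 1 read more or less moves the log2 value by a large step. Snord88a has 94.4% identical positions with Snord88c, and the values of this pair depend on how the authors' counting split shared reads.

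All 107 RNAs were found in GENCODE M21, 105 at 1 place and 2, Snora16a and Snora43, at 2 places each, whose values may sum both. They were 64 to 414 bases long, with median lengths of 79.5 for C/D, 132 for H/ACA and 140 for Scarna RNAs. A host gene on the same strand held 102 of them, 77 hosts in all, and 31 of the RNAs lay in ribosomal protein genes. The other 5 were Snord104, Snora17, Snora43, Scarna2 and Scarna17. Within the hosts 55 RNAs lay in introns and 47 overlapped an exon of some transcript, where the counting may have given reads to both genes.

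As a set, the host genes did not show the differences of the RNAs they hold. For 95 pairs of an RNA and a host that passed the value limit, 72 hosts in all, the median change with hypoxia in KO cells was 0.78 for the RNAs and -0.08 for the hosts, and in WT cells 1.21 and 0.17. The RNA's change was above the host's in 89 of 95 pairs in KO and 91 of 95 in WT cells, and limma called none of the hosts in either. Over the 95 pairs, which share libraries and often hosts, Pearson's r between the 2 changes was 0.02 in KO and 0.17 in WT cells, and Spearman's rho 0 and 0.15. The exceptions in WT cells were Snord47 in Gas5, Scarna13 in Snhg10, Snora69 in Rpl39 and Snora61 in Snhg12. Gas5, a long noncoding gene that carries many C/D RNAs, had 38429 and 11528 in KO hypoxia, 15794 and 8697 in KO normoxia, 25472 and 23526 in WT hypoxia, and 9464 and 9733 in WT normoxia, and like most of the small RNAs it was highest in KO hypoxia replicate 1. Its change in WT cells was 1.35, and that of Snord47 within it 1.09. Snhg8 and Dancr, whose RNAs overlap an exon, had values close to those of their RNAs. Snhg8 changed by 0.60 in KO and 1.06 in WT cells, and Snora24 by 0.67 and 1.11, at means of 4491 and 4159. Dancr changed by 0.842 and 1.055, and Snora26 by 0.871 and 1.084, at means of 3333 and 3269. How far such host values are reads of the small RNA itself was not tested. Snhg1, which holds Snord22, had a change of -0.27 in KO and 0.66 in WT cells, and Ncl, which holds Snord82, 0.31 and -0.20.

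**Figure D5:**
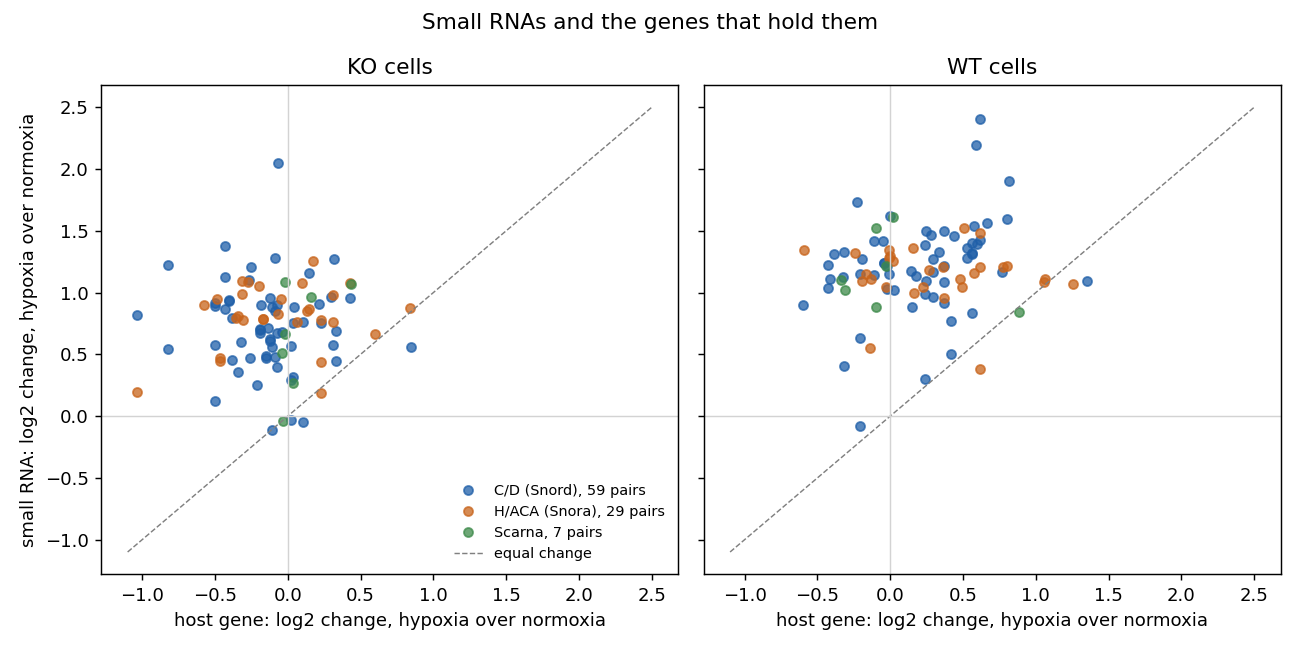
Each point is an RNA with the log2 change of hypoxia over normoxia of its host gene across and its own up, in KO cells on the left and WT cells on the right, for 95 pairs. Hosts spread around 0 (medians -0.08 in KO and 0.17 in WT) while the RNAs lie above the dashed line of equal change in 89 and 91 pairs.

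RNAs that share a host, and so a precursor, differed widely in level, and the order was stable over libraries. On values per 100 bases, 19 hosts held 2 or more of the RNAs, 44 RNAs in all, and in 15 of the 19 the same RNA was highest and the same lowest in all 8 libraries. The ratio of the highest to the lowest mean had a median of 3.78 and ran from 1.09 for Snord15a over Snord15b in Rps3 to 57.4 for Snord83b over Snord43 in Rpl3. Snord43 is annotated as a microRNA gene of 108 bases, and its value per length rests on that annotation. In Rpl13a the mean level per 100 bases was highest for Snord35a, at 2902, then Snord34 and Snord32a, and lowest for Snord33, at 669.3. In Ncl, the gene of nucleolin, Snord82 had 10247 and Snora75 500.2 per 100 bases. In Snhg12 the ratio of Snora16a to Snora61 was 51.8, though Snora16a is annotated at 2 places.

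Genes for the proteins that bind these RNAs did not show the family's differences in RNA level, and no protein was measured. Of the 4 tested core proteins of C/D particles, Fbl, Nop56, Nop58 and Nhp2l1, limma called 0 in either direction, and their median change was -0.18 in KO and -0.01 in WT cells. Of the 4 of H/ACA particles, Dkc1, Nhp2, Nop10 and Gar1, limma also called 0, with medians of 0.03 in KO and -0.06 in WT cells. Fbl, the methyltransferase fibrillarin, had 30 and 23 in KO hypoxia, 67 and 47 in KO normoxia, 40 and 32 in WT hypoxia, and 37 and 31 in WT normoxia, a change of -1.07 ± 0.35 in KO cells (SE, limma adjusted p = 0.916). Its KO hypoxia libraries were both below its KO normoxia libraries. Nhp2l1 was low as well, at 29 to 44. Among 17 tested factors of particle assembly and end processing the median change was -0.10 in KO and -0.07 in WT cells. It was -0.21 and -0.09 among genes of 6 Cajal body proteins, and -0.25 and -0.26 among 16 nucleolar and RNA polymerase I genes. Limma called 0 in each list. Across all features it called 0.0578% higher in KO and 0.107% in WT cells, and 0% lower. With so few calls, 0 in a short list says little.

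Small RNAs under other names had values like those of the family. Those tested were the RNAs of RNase P and RNase MRP, telomerase RNA, 2 minor spliceosomal RNAs, a vault RNA, Rnu73b, Rprl1, Rprl2 and Rprl3. They were set apart by name alone: Rnu73b and telomerase RNA may be akin to the family, and Rprl1 to Rprl3 to the RNase P RNA. All 10 had a change above 0 in both genotypes, with medians of 0.62 in KO and 0.96 in WT cells. Limma called 0 of them. The minor spliceosomal RNA Rnu12 had 6664 and 1451 in KO hypoxia, 2916 and 913 in KO normoxia, 5283 and 3202 in WT hypoxia, and 1721 and 1147 in WT normoxia. Rmrp, the RNA of RNase MRP, which cuts the ribosomal RNA precursor, had 318666 and 73520 in KO hypoxia, 183944 and 51349 in KO normoxia, 128817 and 104153 in WT hypoxia, and 81901 and 47301 in WT normoxia. In both the highest library was KO hypoxia replicate 1, and in both WT hypoxia stood clear of WT normoxia while the KO groups overlapped.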

How the data were processed

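RNA of 8 libraries, 2 in each of 4 groups, was measured by sequencing; per the labels' protocols total RNA went into libraries made with a small RNA kit for SOLiD sequencing. In the deposited table each value is a score per feature and library, per the table name the authors' normalised count; values are whole numbers of at least 1. Not given in the sources used here are the aligner, the counting program, the build, the use of strand and how counts were normalised. Sample columns left unused numbered 0. From the values, 26 feature names had been turned into dates.

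Features that reached 10 in 2 or more libraries were kept, and limma 3.58.1 (R 4.3.3, trend) was fitted to log2(value + 1) with 4 group means over all 12107 of them, 7 contrasts, two-sided, with Benjamini-Hochberg adjustment over all features at 0.05. Differences are on this scale, which understates those of low features. The fit was tested on simulated data. Depth was estimated from the spacing of low values, with an error of at most 0.0015 in the worth of 1 read on 4 simulated libraries. In the real libraries the spacing matched the modelled one with correlations of 0.736 (WT hypoxia replicate 2) to 0.962 (KO hypoxia replicate 1). Their error is not known and may be larger. Places and hosts came from GENCODE M21 (GRCm38). The RNAs and gene lists were chosen with earlier results of these data known. Named RNAs were the Scarna RNAs, the highest of each class, those with the smallest p-values per contrast and those at the value limit; Snord72, Snord123, Snord19 and the examples of hosts and of other small RNAs were chosen after their values were seen. Alternatives were other filters, pseudocounts and scalings, a replicate block and leaving out libraries. No feature in the deposited values carried the names Snord3a, Snord118, Snord13, Snord14a to Snord14e, Snora73a, Snora73b or the imprinted Snord115 and Snord116. These RNAs were therefore not analysed here.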

Additional observations from a re-analysis of the deposited data

How the results depend on the processing

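Counts of RNAs called and medians of the family were recomputed with other filters, pseudocounts (0.5 and 5) and scalings, with a replicate block and without each library. The count called was 0 in 117 of 119 recomputations and the median stayed within the spread between replicates in 115 of 119. That spread was wide, with an SD of 0.904 log2 units for a library's median, pooled over all 4 groups, KO included. Staying within it therefore says little, above all for WT cells, and did not keep the sign. KO over WT in normoxia went from 0.32 to -0.39 without KO normoxia replicate 1. The difference of responses went from -0.45 to 0.62 without KO hypoxia replicate 2. For hypoxia over both genotypes 4 were called with the replicate block (Snord55, Snord2, Snord92 and Snora65, 3.74% of the family against 0.463% of all features), and 0 to 6 on leaving out 1 library each. Same-numbered libraries deviated together in some pairs of groups and not in others. The correlations were -0.11 to 0.57 over all tested features and -0.15 to 0.42 over the 107 RNAs. A correlation over the 107 RNAs leaves out a shift that all of them share. The family's median was higher in replicate 1 than in replicate 2 in all 4 groups. The labels give the numbers no meaning, so the libraries were not taken as pairs. The median change with hypoxia in KO cells ran from -0.30 to 1.80 on leaving out 1 library, and that of KO over WT in hypoxia from -1.21 to 0.91, both set by the KO hypoxia libraries; the cause was not tested.

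Of single RNAs 25 recomputed values turned sign, all of RNAs with no call. In WT hypoxia Snord88a ran from -0.58 to 0.42. In KO hypoxia Scarna2 ran from -0.75 to 0.54, Snord11 from -1.58 to 1.35 and Scarna13 from -0.79 to 0.70. For KO over WT, Snord88a ran from -2.39 to 0.31 and Scarna9 from -1.17 to 0.71 in normoxia, and Snora5c from -0.32 to 1.76 and Snord88a from -0.50 to 1.34 in hypoxia. Over both oxygen levels Scarna9 ran from -0.93 to 0.01. The difference of responses ran from -0.39 to 1.41 for Snord1b and from -0.50 to 1.57 for Snora5c. Leaving out KO normoxia replicate 1 together with WT hypoxia replicate 2 gave 0.42 for Snord88a in WT hypoxia and -0.08 in KO over WT hypoxia, 0.54 for Scarna2, 0.58 for Snord11, 0.70 for Scarna13 and -0.048 for Snord93 in KO over WT over both oxygen levels (0.085 to 1.01 without 1 library each). Scaling by trimmed means moved the median of all features by at most 0.01 and scaling without small RNA features by at most 0.05. Each group had 2 libraries, and the KO replicates lay farther apart than the KO groups.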
